A study of Mus musculus with 6 samples.

Results

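Cytosolic ribosomal proteins are the protein building blocks of the ribosome that translates nuclear-encoded mRNAs. The genes described here were the protein-coding rows whose symbol is that of a ribosomal protein of the small subunit (Rps), the large subunit (Rpl) or the stalk (Rplp), with Rpsa included and the Rps6k kinases left out. They numbered 81 of the 20533 genes measured: 31 small subunit genes, 43 large subunit genes, 3 stalk genes and 4 paralogues (Rpl22l1, Rps27l, Rpl7l1 and Rpl3l), and 4 further rows with a matching symbol were not protein-coding. The mice were wild-type C57BL/6 males, 7 weeks old. For 7 days they received water, 2% dextran sulfate sodium (DSS, a sulfated polysaccharide that damages the lining of the colon), or 2% DSS plus montmorillonite powder, an adsorbent clay, and RNA of the distal colon was then sequenced. Each group held 2 libraries, so montmorillonite was measured only on top of DSS. Whether a group's 2 libraries are from different animals is not stated in the labels, so p-values measure only a spread between libraries that may be technical. Values are normalised read counts, whole reads divided by 1 size factor per library.

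Ribosomal protein genes are transcribed strongly in growing cells, and the proteins are needed in equal amounts, because each ribosome holds 1 copy of nearly every one. Their mRNAs usually begin with a C followed by a run of pyrimidines, the terminal oligopyrimidine (TOP) start, through which the mTOR pathway and the protein Larp1 control their translation and stability. The gut lining renews itself from dividing crypt cells, and plasma cells and other secretory cells also carry many ribosomes. In RNA from whole tissue, fewer cells of a type and less of an RNA per cell cannot be told apart.

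The 5′ ends of a few of these genes are shown because this shared start is the best known feature of the family. RefSeq start sites (GRCm38.p6) were found for 61 of the 81 genes. At 13 of the 61 (21.3%) the annotated first base was a C followed by at least 4 pyrimidines, against 3.01% of 27025 genes in the same table. Each stretch holds 40 bases before the annotated start and 12 from it, read 5′ to 3′ on the gene's strand, with the pyrimidine run at the start in capitals. The first 4 carry a run, and Rpl39, Rpl10a and Rpl13a do not at these annotated starts. Rpl35 and Rps15a were among the 5 genes furthest below water with DSS plus montmorillonite, Rpl28 was among those nearest to it, and Rps6 encodes the protein phosphorylated by the S6 kinases. They lie at chr2:39005120-39005171 (Rpl35), chr7:118116136-118116187 (Rps15a), chr7:4792925-4792976 (Rpl28), chr4:86857356-86857407 (Rps6), chrX:37085211-37085262 (Rpl39), chr17:28328431-28328482 (Rpl10a) and chr7:45128734-45128785 (Rpl13a), with Rpl28 and Rpl10a on the plus strand and the others on the minus strand.
Rpl35: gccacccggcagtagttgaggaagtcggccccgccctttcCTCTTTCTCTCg
Rps15a: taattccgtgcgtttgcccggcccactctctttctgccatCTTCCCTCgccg
Rpl28: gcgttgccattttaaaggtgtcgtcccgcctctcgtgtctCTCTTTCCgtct
Rps6: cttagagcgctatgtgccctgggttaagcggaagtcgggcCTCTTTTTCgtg
Rpl39: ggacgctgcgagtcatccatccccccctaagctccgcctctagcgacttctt
Rpl10a: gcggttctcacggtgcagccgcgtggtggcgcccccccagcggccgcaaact
Rpl13a: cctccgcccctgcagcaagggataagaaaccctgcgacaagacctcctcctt

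The word CTCTTTC, searched on the gene's strand within 30 bases of the start, was found at 8 of the 61 genes (13.1%) against 0.969% of all, and 4 genes had both this word and a TOP start. The word CCGGAAG, the core recognised by Ets factors, was found on either strand of the 300-base window at 25 of the 61 (41.0%) against 9.93%. A match is a description of these letters, not a site. The 13 genes with a TOP start had a median log2 difference from water of -0.32 with DSS and -0.54 with DSS plus montmorillonite. The 48 matched genes without one had -0.39 and -0.65.

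Recovered reads totalled 3741494 and 8936826 for water, 15212981 and 21481594 for DSS, and 4494666 and 6395768 for DSS plus montmorillonite. The 13 markers of colonic epithelium were read in all 6 libraries. The libraries with DSS plus montmorillonite differed from each other. The summed level of 10 neutrophil genes was 129 for replicate 1 and 7904 for replicate 2, where water had 36.5 and 54.6 and DSS had 4012 and 8645. The neutrophil marker Retnlg was at 0 in both water libraries, and Trem1 in water replicate 1 and in DSS plus montmorillonite replicate 1. The summed level of 10 stratified squamous genes was 40906 in DSS replicate 2 and 7531 in DSS plus montmorillonite replicate 2, and 32.6 to 478 in the other 4 libraries.

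Ribosomal protein transcripts were lower in all 4 libraries given DSS than in water, and lowest with montmorillonite added. The 81 genes took 3.67% (Wilson 95% interval 3.66% to 3.69%) and 3.75% (3.73% to 3.77%) of all reads in water. With DSS they took 3.51% (3.50% to 3.52%) and 3.16% (3.15% to 3.17%). With DSS plus montmorillonite they took 2.45% (2.43% to 2.46%) and 2.30% (2.29% to 2.32%). The group means were 3.71% ± 0.052 (SD, n = 2), 3.33% ± 0.25 and 2.37% ± 0.10, and no group overlapped another. With immunoglobulin genes taken out of the total, the shares were 3.70% and 3.77% in water, 3.67% and 3.29% with DSS, and 2.47% and 2.40% with DSS plus montmorillonite, so that DSS replicate 1 was close to water. The intervals cover counting error only, and this share does not depend on the size factors.

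In the deposited values the medians of DSS replicate 2 and DSS plus montmorillonite replicate 1 were close, unlike their shares of reads. The values of all genes sum to 7292753 and 9199068 in these libraries, so equal values are unequal shares. The median of the 81 genes lay 0.33 and 0.50 below the mean of the water libraries (log2 of value + 1) in DSS replicates 1 and 2, and 0.48 and 0.75 below it in DSS plus montmorillonite replicates 1 and 2. The median of all 20307 genes tested lay between 0.043 and 0.10 above water in the same libraries. Both water libraries were above the other 4 in 69 of the 81 genes, as in 11.2% of all genes tested. Both libraries with DSS plus montmorillonite were below the other 4 in 40 of the 81, as in 7.51% of all. Water, DSS and DSS plus montmorillonite followed each other without overlap in 33 of the 81, as in 1.87% of all. DSS plus montmorillonite replicate 2 was the lowest library in 72 of the 81, as in 14.5% of all. Replicate 1, with its low neutrophil genes, lay below both water libraries in 77 of the 81, as in 32% of all genes.

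**Figure D1:**
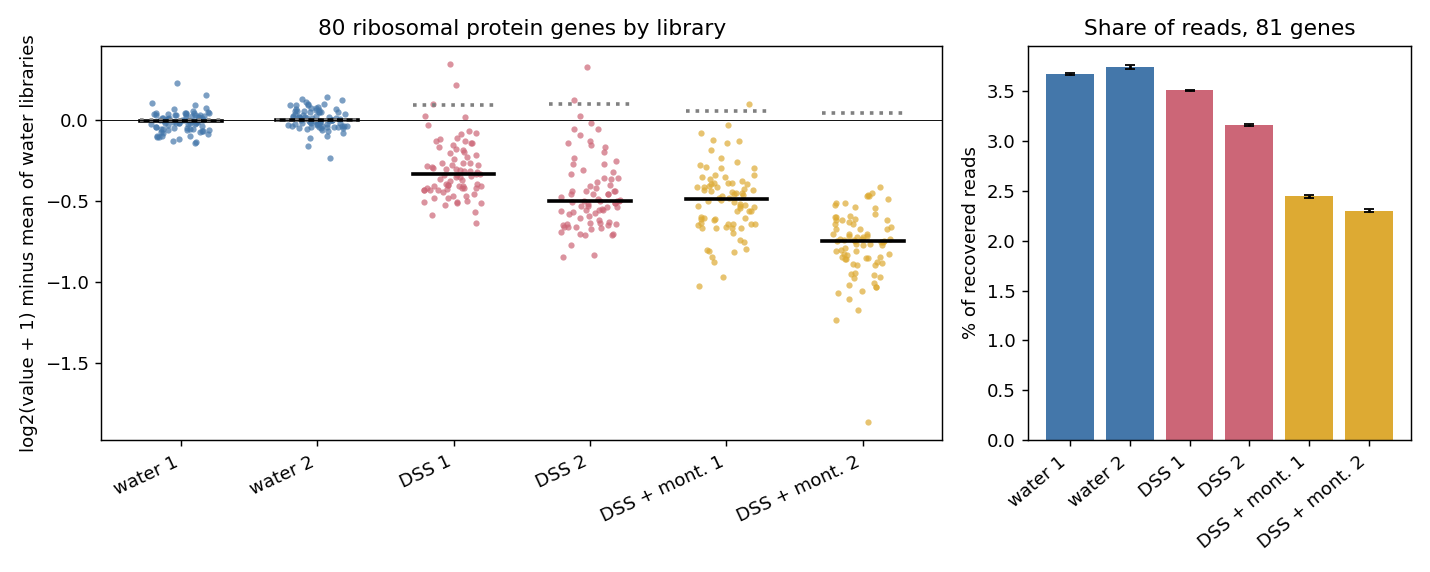
Left, log2(value + 1) of 80 ribosomal protein genes (Rpl3l, with almost no reads, is left out) minus the mean of the water libraries, by library; points are genes, black bars their medians and grey dotted bars the medians of all genes tested. Right, percent of recovered reads from all 81 genes with Wilson 95% intervals; the shares run from 3.75% in water to 2.30% with DSS plus montmorillonite.

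DSS was set against water to see how the family responded to the injury alone. The median log2 difference was -0.41, a fold of 0.753, and 77 of the 81 genes were negative, beside a median of 0.10 over all genes. In 71 genes both DSS libraries lay below both water libraries, as in 28.5% of all genes, and in 1 gene, Rpl7l1, both lay above, as in 33.9%. In the limma fit of all 6 libraries no gene of the family passed an adjusted p of 0.05, as 0% of all genes did in either direction. The smallest adjusted p in the family was 0.167, and 12 of its genes were lower at an unadjusted p under 0.05, as were 10.5% of all. In the limma fit of the 4 DSS and water libraries alone 1 gene passed, Rps14 (adjusted p = 0.0484), where 7.18% of all genes passed as lower and 7.9% as higher. A fit without 1 of these 4 libraries leaves a group with 1 library, so it cannot decide about single genes. With scaling by library size only, 0 passed. Under that scaling the family's median was -0.17, with 69 genes negative, while the median of all genes moved from 0.10 to 0.33. In 39 genes both DSS libraries then lay below both water libraries, as in 19.7% of all genes.

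The difference was of similar size in both subunits. The median log2 difference was -0.40 over the 31 small subunit genes, of which 27 lay below water without overlap. It was -0.45 over the 43 large subunit genes, of which 40 did. Rps14, a small subunit protein of the platform that holds the mRNA, had 6812 and 6277 in water, 4216 and 4141 with DSS, and 4441 and 3250 with DSS plus montmorillonite. Its DSS libraries were close together and well below water, at a log2 difference of -0.65 ± 0.23 (SE).

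Rpl39, a very short protein of the exit tunnel, had the most negative difference between DSS and water. Its values were 1638 and 1685 in water, 1165 and 933 with DSS, and 1053 and 738 with DSS plus montmorillonite (log2 -0.67 ± 0.24 SE with DSS, limma adjusted p = 0.181). All 4 libraries given DSS lay below both water libraries. After Rpl39 and Rps14 came Rpl9 (-0.61), Rpl26 (-0.58) and Rpl32 (-0.57), which are large subunit proteins, each without overlap.

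Only 4 genes had a positive difference with DSS, and they were Rpl3l, Rpl13a, Rps27a and Rpl7l1. Rps27a encodes ubiquitin fused to a small subunit protein, so it supplies ubiquitin as well. It had 2349 and 2538 in water, 3112 and 2358 with DSS, and 1817 and 1568 with DSS plus montmorillonite. DSS replicate 1 was its highest library, and its DSS and water libraries overlapped (log2 0.15 ± 0.22 SE). Rpl13a, also known for a role outside the ribosome in silencing inflammatory mRNAs, had 223 and 161 in water, 221 and 239 with DSS, and 155 and 124 with DSS plus montmorillonite (0.27 ± 0.28 SE). Among the other genes, Rpl28, Rpl37a, Rplp2, Rps12, Rps21, Rps27 and Rpsa were negative as deposited but turned positive, between 0.01 and 0.19, with scaling by library size only.

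**Figure D2:**
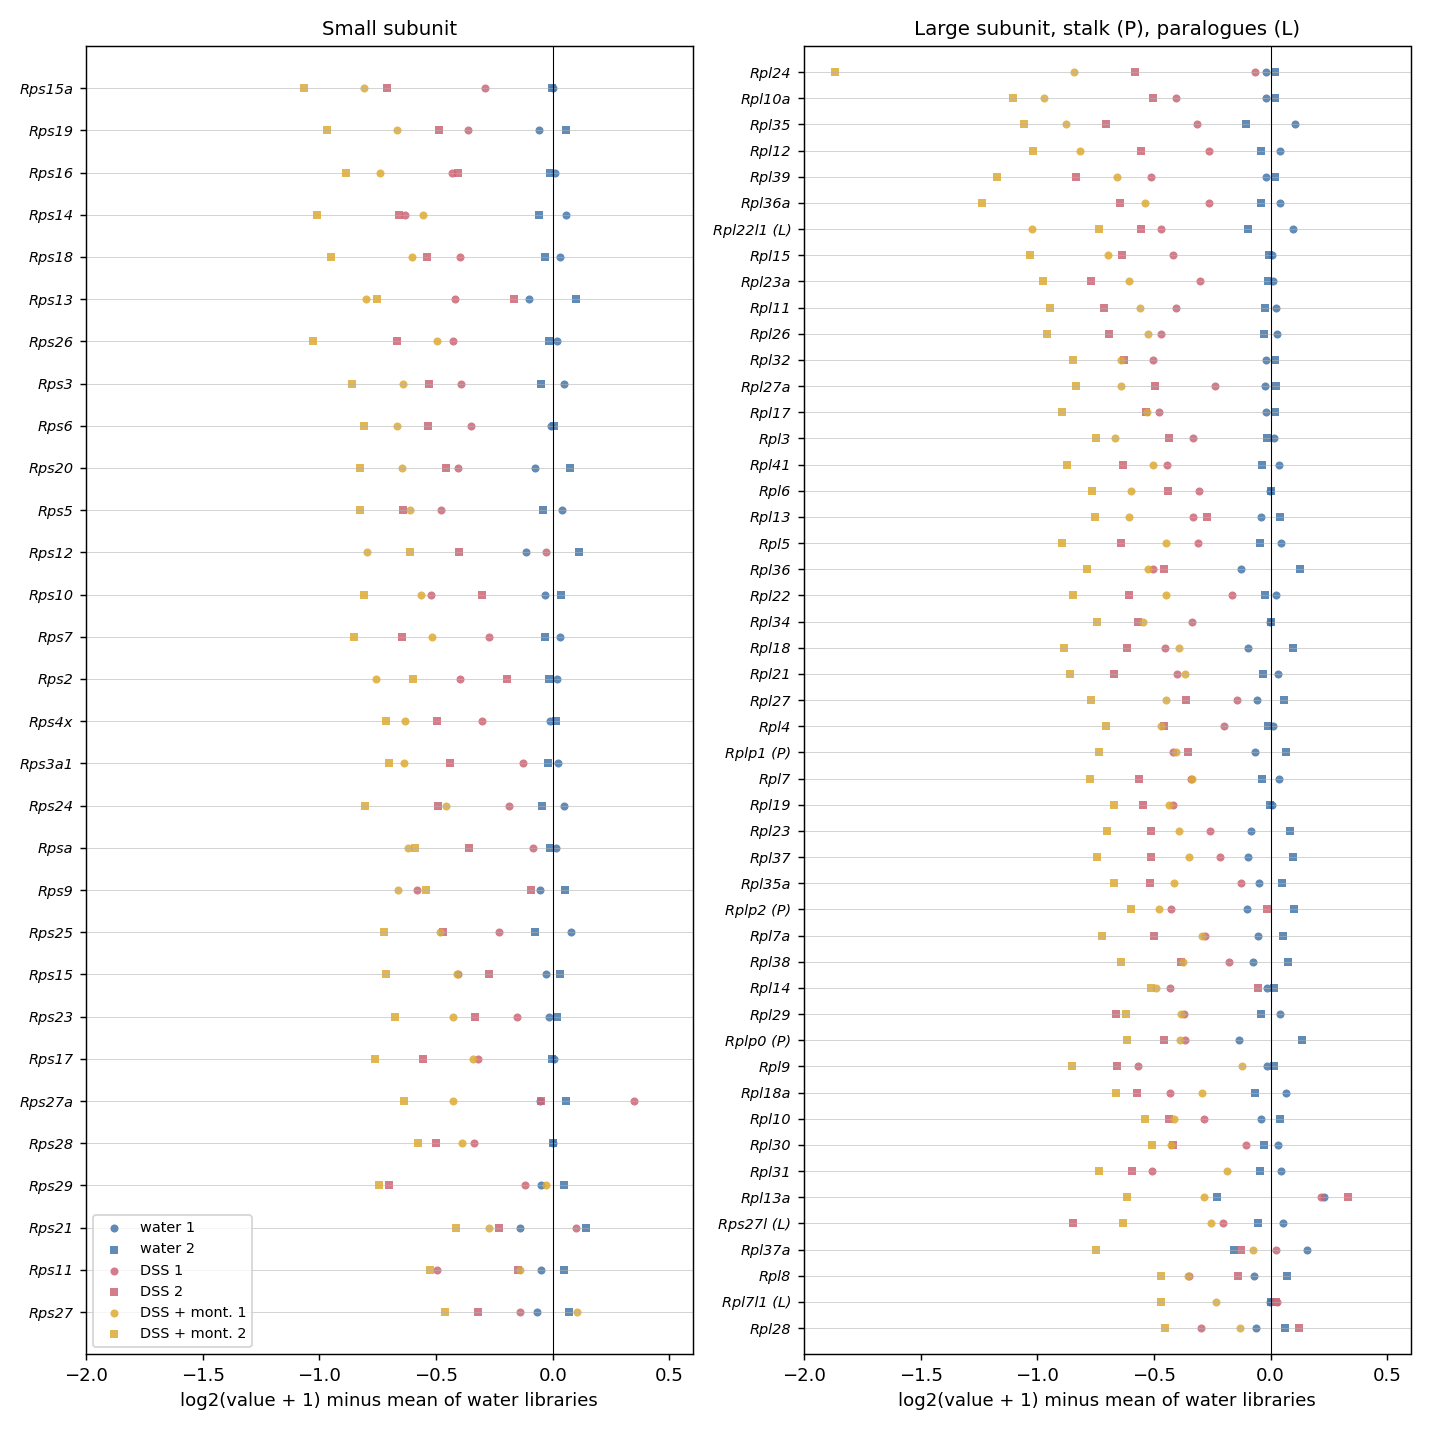
log2(value + 1) minus the mean of the water libraries for the ribosomal protein genes in each of the 6 libraries, Rpl3l and genes not reported here left out, small subunit on the left and large subunit, stalk (P) and paralogues (L) on the right. Genes are sorted by their difference between DSS plus montmorillonite and water, and circles are replicate 1 and squares replicate 2. The yellow squares, DSS plus montmorillonite replicate 2, are the lowest library in most rows.

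Setting DSS plus montmorillonite against water gave the larger difference in medians. The median was -0.63 (a fold of 0.645) beside 0.056 over all genes, and 80 of 81 genes were negative. Both libraries lay below both water libraries in 77 genes, as in 19.2% of all, and in none did both lie above, as in 21.5%. The 4 genes that overlapped were Rpl37a, Rps27, Rps29 and Rpl3l. Limma called none in the fit of 6 libraries, as 0% of all genes either way, with a smallest adjusted p of 0.297, and 60 of the 81 were lower at an unadjusted p under 0.05, as were 4.77% of all. DESeq2, run on the recovered reads, called 13 lower, where it called 1.29% of all genes with an adjusted p lower. The edgeR test called 0 of the family. It also called 0 of all genes in either direction, so its result is not particular to the family. Without replicate 1 of DSS plus montmorillonite limma called 5 (Rpl15, Rpl10a, Rps14, Rpl39 and Rpl36a), as 1.62% of all genes; the other left-out libraries gave 0. Each of these left-out fits leaves a group with 1 library, so their counts cannot decide about single genes or the family. Without replicate 2 of DSS plus montmorillonite the family's median was -0.48. Scaling by library size only gave -0.65 and TMM -0.66. DSS and DSS plus montmorillonite were compared with the same water libraries, so both comparisons share their controls.

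Among abundant genes Rpl10a stood out. It encodes a large subunit protein of the L1 stalk, where spent tRNA leaves the ribosome. Rpl10a (ENSMUSG00000037805.14, GRCm38 chromosome 17, 28328471 to 28331033) had 4821 and 4949 in water, 3688 and 3442 with DSS, and 2493 and 2269 with DSS plus montmorillonite. The 3 groups were fully apart and each was tight. The difference between DSS plus montmorillonite and water was -1.04 ± 0.19 (SE, log2; limma adjusted p = 0.297, DESeq2 adjusted p = 0.000189). The other genes furthest below water were Rpl35 (-0.97), Rps15a (-0.94) and Rpl12 (-0.92), which helps to form the base of the stalk. Rpl35, near the exit tunnel, had 2591 and 2233 in water, 1933 and 1477 with DSS, and 1309 and 1156 with both.

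Rpl24 had the lowest value of all in this comparison, at -1.36 ± 0.58 (SE), but on few reads. Its values were 28.8 and 29.6 in water, 27.8 and 19.2 with DSS, and 15.8 and 7.27 with DSS plus montmorillonite. The deposited level of Rpl24, like that of Rpl13a, was far below that of the rest of the family: 43.1 and 183 per kilobase of transcript in water, against a median of 4349 over the family. Of the 50-base words in the Rpl24 transcript 81.7% also occur in another GENCODE M21 gene, and of those of Rpl13a 57.4%. How the authors counted reads shared between genes is not given in the sources used here, so the levels of both genes are uncertain. Such sharing is common in this family, where 79 of the 81 genes share words with another gene, at a median of 55.4% of words. The gene sharing most words, Rps27 (98.6%), had 7069 per kilobase in water. The cause of the low levels of Rpl24 and Rpl13a was not tested. The difference from water was of like size whatever the sharing: with DSS plus montmorillonite the median was -0.63 over the 11 genes sharing under 25% of words, -0.60 over the 46 between and -0.68 over the 24 sharing over 75%.

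The comparison of DSS plus montmorillonite with DSS asks what the clay added. The median was -0.26 beside -0.071 over all genes, with 74 of 81 negative. In 40 genes both libraries lay below both DSS libraries, as in 20.6% of all, and in none above, as in 19.4%. These included 20 of the 31 small subunit genes and 17 of the 43 large subunit genes. Limma called none in the fit of 6 libraries (0% of all genes either way; smallest adjusted p = 0.355), and 5 were lower at an unadjusted p under 0.05, as were 4.89% of all, so the family's share was near the background. With the deposited size factors the size of this difference rested on replicate 2: without it the median was -0.093. In the share of all reads, replicate 1 (2.45%) also lay below both DSS libraries (3.51% and 3.16%). Scaling by library size only gave a median of -0.51 with all 81 genes negative, beside -0.31 over all genes. Under that scaling 74 genes lay below DSS without overlap, as 33.1% of all genes did.

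The genes furthest below DSS were Rpl24, Rpl13a (-0.72), Rps27a (-0.68), Rpl10a (-0.58) and Rpl12 (-0.51). Rps27a and Rpl13a, which had not been lower than water with DSS alone, were lower in both libraries with montmorillonite added than in any DSS or water library. At the other end Rpl9 (0.13), Rpl31 (0.091), Rps27l (0.082), Rps27 (0.051) and Rps29 (0.025) had small positive differences with overlapping libraries, which turned negative with scaling by library size only. In each of these 5 genes replicate 1 was nearer to water than replicate 2. Rps29, a small zinc-binding protein, had 1169 in replicate 1 and 712 in replicate 2, beside water values of 1152 and 1235.

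**Figure D3:**
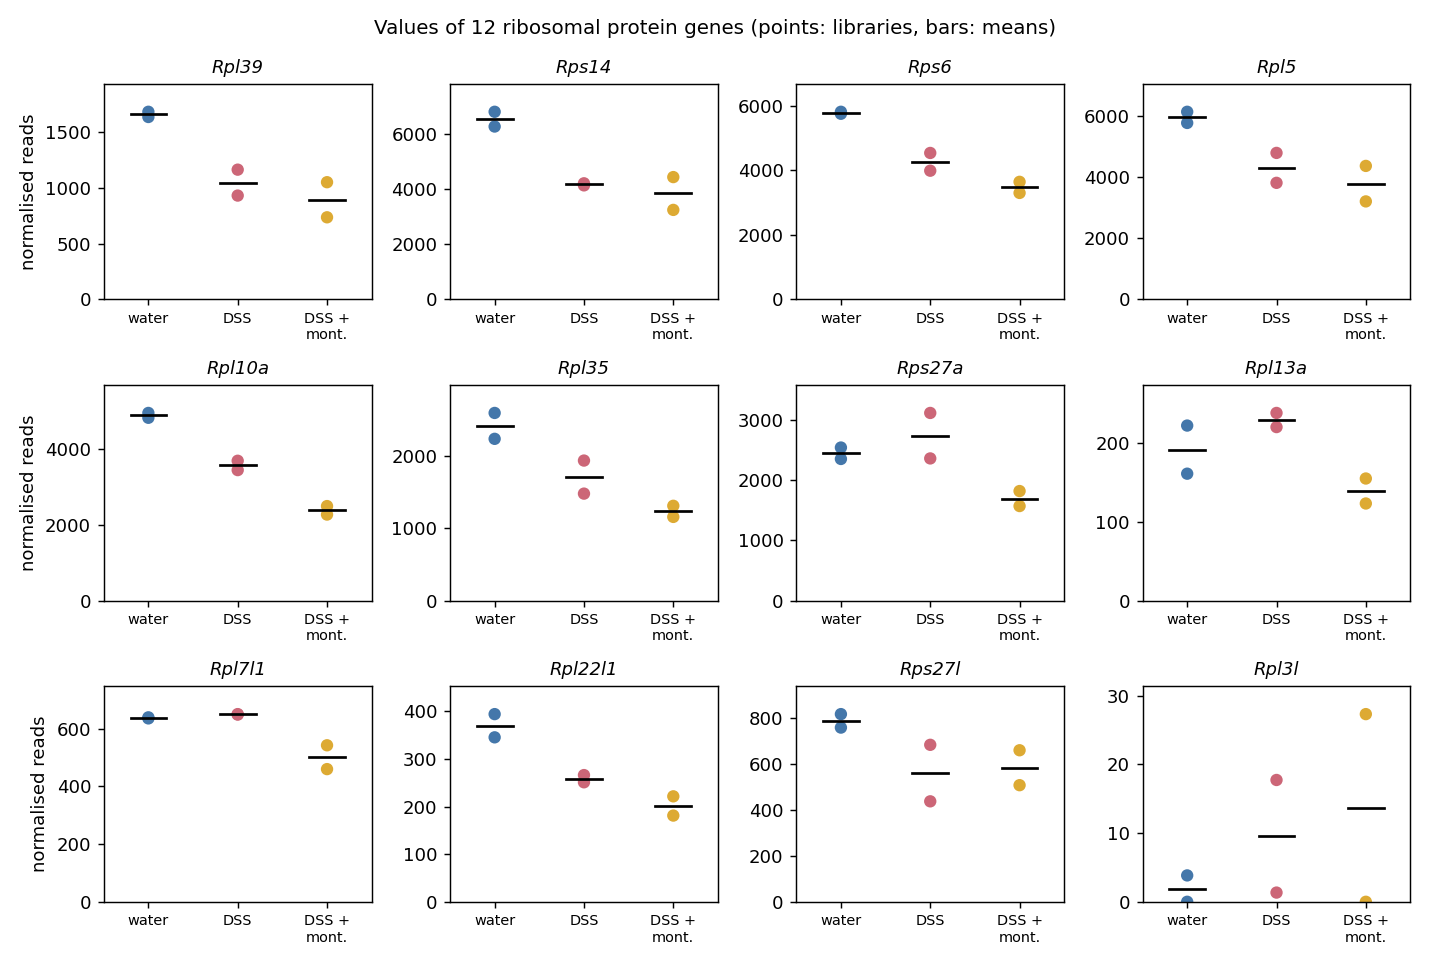
Normalised read counts of 12 ribosomal protein genes in each library (points) with the group mean (bar), each axis starting at 0. Rpl39, Rps14, Rps6, Rpl5, Rpl10a and Rpl35 are lower in both groups given DSS, Rps27a, Rpl13a and Rpl7l1 are below water in both libraries with montmorillonite and not in those with DSS alone, and Rpl3l follows single libraries.

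Genes whose products act at defined places in the ribosome followed the family. The stalk recruits the elongation factors. Rplp0, its anchor and the gene with the highest values of the family, had 15000 and 18094 in water, 12764 and 12016 with DSS, and 12597 and 10758 with DSS plus montmorillonite. Its difference was -0.41 with DSS and -0.50 with both, and all 4 libraries lay below water. Rplp1, at -0.39 and -0.57, did the same. Rplp2 had 1659 and 1913 in water, 1326 and 1762 with DSS, and 1279 and 1176 with both, so that DSS replicate 2 lay within the water range. Per kilobase in water, Rpl41 (15720) and Rplp1 (14972) were the highest of the family.

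Rpl5 and Rpl11 bind the 5S rRNA and, when ribosomes are not completed, restrain Mdm2 and so stabilise p53. Rpl5 had 6149 and 5783 in water, 4801 and 3821 with DSS, and 4375 and 3212 with DSS plus montmorillonite. Rpl11 had 4105 and 3980, 3048 and 2467, and 2739 and 2100. Both were below water in every library given DSS, at -0.48 and -0.56 with DSS and -0.67 and -0.75 with both. Rps6 had 5751 and 5813 in water, 4538 and 3988 with DSS, and 3643 and 3299 with both, with the 3 groups apart. Rpl41, the smallest ribosomal protein, differed by -0.54 and -0.69. Rpsa, also known as the laminin receptor, had 9929 and 9747 in water, 9283 and 7669 with DSS and 6408 and 6526 with both, with DSS replicate 1 close to water and the groups apart.

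The paralogues can replace their parent protein in the ribosome or act outside it, and a ratio within a library does not depend on scaling. Rpl7l1, which acts in ribosome assembly, had 635 and 639 in water, 650 and 649 with DSS, and 542 and 460 with DSS plus montmorillonite. Its parent Rpl7 was lower with DSS, so that the Rpl7l1 to Rpl7 ratio was 7.32% and 7.73% in water, 9.73% and 11.3% with DSS, and 8.09% and 9.28% with both. Every library given DSS had a higher ratio than either water library.

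Rps27l, a p53 target gene, had 816 and 757 in water, 682 and 437 with DSS, and 659 and 507 with both. Its ratio to Rps27 was 35.1% and 29.7%, 30.9% and 22.4%, and 25.2% and 28.7%, which overlapped between water and DSS. Rpl22l1, whose level Rpl22 restrains, had 394 and 346 in water, 266 and 251 with DSS, and 181 and 222 with both. Its ratio to Rpl22 was 11.2% to 18.1% over the 6 libraries, with no order by group. Rpl3l, a striated muscle form of Rpl3, had 3.84 and 0 in water, 1.34 and 17.7 with DSS, and 27.3 and 0 with both. It was high in the same 2 libraries as the summed level of 10 skeletal muscle genes, which was 681 and 330, 121 and 3285, and 4221 and 189.

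Of 6 ribosomal protein genes and copies outside the symbol rule, 5 were negative with DSS and 6 with DSS plus montmorillonite, each against water. Against DSS, 4 of the 6 were negative with montmorillonite added. The medians were -0.56, -0.65 and -0.51. Rack1, a scaffold on the small subunit, had 8528 and 8722 in water, 6108 and 5577 with DSS, and 5355 and 4659 with DSS plus montmorillonite (-0.56 and -0.79). Fau, which encodes a fusion with the small subunit protein eS30, was at -0.53 and -0.37, so that, unlike the family's median, it was further below water with DSS alone.

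Other parts of the translation machinery shared the direction. Of 18 further mRNAs known to carry a TOP start, mainly elongation and initiation factors, 15 were negative with DSS and 17 with DSS plus montmorillonite, with medians of -0.33 and -0.46. With scaling by library size only these medians were -0.093 and -0.48. Eif3h, an initiation factor subunit, had 2147 and 2249 in water and 1317 and 1466 with DSS. It was the 1 gene of that list to pass in the limma fit of 4 libraries (adjusted p = 0.0431), where 7.18% of all genes passed as lower. Eef1b2, an elongation factor subunit, had the smallest p of the list with DSS plus montmorillonite, at -0.69 from water, and Hnrnpa1, an RNA-binding protein, had it against DSS, at -0.72.

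Mitochondrial ribosomal proteins, which serve a separate ribosome, were also lower. Of 74 genes 67 were negative with DSS (median -0.34) and 72 with both (-0.46). By library the median was -0.16 and -0.53 with DSS and -0.27 and -0.58 with both, and with scaling by library size only the DSS median was -0.10. In the limma fit of 4 libraries 6 passed as lower with DSS, where 7.18% of all genes did. Among them was Mrpl14, at 347 and 384 in water and 159 and 150 with DSS (adjusted p = 0.0172). A fit without 1 of those libraries cannot decide about these calls, since a group then holds 1 library. Mrpl13 differed by -0.78 with DSS plus montmorillonite. Mrps6, which had the list's smallest p for DSS against water, was lower with DSS and higher than water with both agents: it had 582 and 498 in water, 301 and 344 with DSS, and 785 and 745 with both.

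The genes that build ribosomes did not follow the ribosomal proteins with DSS. Of 35 assembly factors, 24 lay above water without overlap in both DSS libraries and 1 below, with a median of 0.49, where 33.9% of all genes lay above. Gnl3 (nucleostemin) had 209 and 182 in water and 439 and 412 with DSS. It was the 1 assembly factor to pass in the limma fit of 4 libraries (adjusted p = 0.0204), where 7.9% of all genes passed as higher. With DSS plus montmorillonite the list's median was -0.39 from water and -0.93 from DSS, with 29 of 35 below both DSS libraries, as 20.6% of all genes. The difference from water was in replicate 1, where the median lay at -0.72, more than in replicate 2, at -0.044. Npm1 (nucleophosmin) had 2670 and 2670 in water, 3621 and 2819 with DSS, and 1555 and 1570 with both. Fbl, the rRNA methyltransferase fibrillarin, had 404 and 448, 395 and 416, and 134 and 242. Eif6, which keeps the subunits apart, did the opposite of the list, with 1761 and 2151, 1172 and 1347, and 1873 and 2202.

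The RNA polymerase I machinery, which makes rRNA, resembled the assembly factors, with medians of 0.42 for DSS against water, -0.17 for both against water and -0.56 for both against DSS over 16 genes. Tcof1 (treacle) had 148 and 189 in water, 262 and 398 with DSS, and 109 and 200 with both. Polr1d, a subunit shared with RNA polymerase III, had 757 and 821, 532 and 548, and 794 and 422, so that its replicates with both agents parted. The direction of the medians of the assembly and polymerase I lists was the same with scaling by library size only and with TMM.

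Among 19 regulators of ribosome supply, 2 passed as lower and 1 as higher in the limma fit of the 4 DSS and water libraries, where 7.18% and 7.9% of all genes did, so the list's share was near the background. Cdkn1a, the cell cycle inhibitor p21 and a p53 target, had 2664 and 2734 in water, 883 and 864 with DSS, and 1703 and 1973 with both (adjusted p = 0.00607 for DSS against water). Max, the partner of Myc, had 3031 and 2806, 1041 and 991, and 2894 and 1675 (adjusted p = 0.00691). Eif4ebp1, the mTOR-controlled translation repressor, had 148 and 132, 321 and 570, and 167 and 678 (adjusted p = 0.0259). Myc itself had 126 and 173, 184 and 410, and 57.5 and 151, and did not pass (adjusted p = 0.200). For Cdkn1a, Max and Eif4ebp1 the adjusted p values in the limma fit of 6 libraries were 0.141, 0.141 and 0.205.

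**Figure D4:**
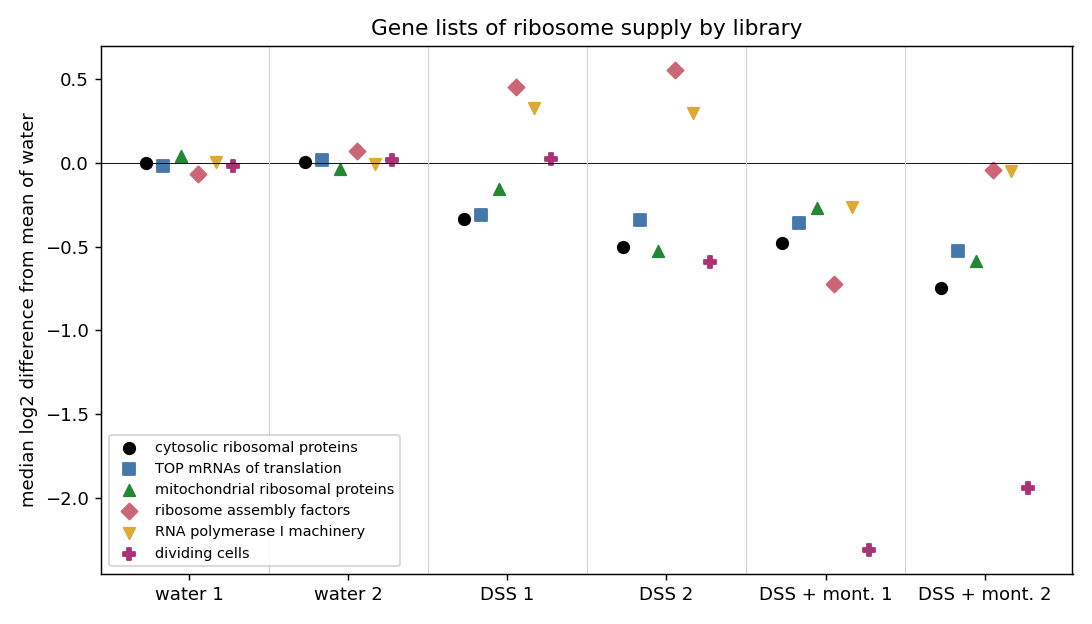
Median log2 difference from the mean of the water libraries, by library, for the 81 cytosolic ribosomal protein genes, 18 TOP mRNAs of translation, 74 mitochondrial ribosomal protein genes, 35 ribosome assembly factors, 16 genes of the RNA polymerase I machinery and 14 genes of dividing cells. The ribosomal proteins lie below 0 in all 4 libraries given DSS, while assembly factors lie above 0 with DSS and below it with DSS plus montmorillonite, by 0.72 in replicate 1 and 0.044 in replicate 2.

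Levels of cell type markers are given beside these results. The summed level of 14 genes of dividing cells was 9043 and 9142 in water, 9278 and 5788 with DSS, and 2324 and 2660 with DSS plus montmorillonite. All 14 were lower with both agents than in any water or DSS library, as were 7.51% of all genes. The 13 colonic epithelium genes summed to 183550 and 184678 in water, 79743 and 53363 with DSS, and 213856 and 116031 with both. Genes of B and plasma cells (10 markers) summed to 39410 and 37943, 171342 and 150696, and 45967 and 188774. The part of these cells in the lower ribosomal protein levels was not tested.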

How the data were processed

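RNA from mouse distal colon was sequenced by the authors in 6 libraries, 2 in each of 3 groups set by the sample labels. The deposited table holds a signal, reads per gene divided by 1 size factor per library. In each column 100.0% of values were whole multiples (within 0.01) of the smallest, so whole reads were recovered. They were mapped to GRCm38 (mm10), per the submitters' processing notes. The aligner, counter and strand setting are not given in the sources used here. A read is worth 0.335 to 2.27 units, depending on depth.

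Identifiers were matched to GENCODE M21 (20500 of 20533 found). The members and lists were chosen with earlier results of these data known. The main test was limma 3.58.1 (R 4.3.3, with a mean-variance trend) on log2(value + 1), fitted to all 6 libraries over the 20307 genes whose mean value reached 1. P-values are two-sided with Benjamini-Hochberg adjustment over all genes tested and a threshold of 0.05. Fold changes are on the log2(value + 1) scale, which understates low genes. Exact permutation of 2 against 2 libraries cannot reach the threshold and was left out. Alternatives were the 4 libraries compared alone, edgeR 4.0.16 and DESeq2 1.42.0 on recovered reads, other pseudocounts, no filter, other scalings, a replicate block and each library left out. Named genes are the 5 with the largest differences each way in each comparison (mean value of at least 20), those called, fixed members (paralogues, stalk, Rpl5, Rpl11, Rps6, Rpsa, Rps27a, Rpl41) and the smallest p of each related list. Other genes named (Rpl28, Rps29's values, Gnl3, Mrpl14, Fau, Myc and the genes that overlapped or changed sign) were chosen after their values were seen. Rpl39l, Rpl10l and Rpl26l1 were not analysed here, and some genes that the rules take are not reported here.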

Additional observations from a re-analysis of the deposited data

How the results depend on the processing

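The lowest depth (3741494 reads) limits Rpl24 and Rpl3l. The family's 3 medians kept their sign with other pseudocounts, no filter, other scalings, without the paralogues and without each library. Only the family's medians were checked for a reversed sign, and none reversed. Paralogue ratios taken per kilobase could not move, because the gene lengths cancel between groups. Of the 117 alternative values, these ratios included, 16 moved by more than the spread between replicates or, for calls, to a different count. The cause was not tested. Scaling by library size only moved the median of DSS against water to -0.17 and of DSS plus montmorillonite against DSS to -0.51. Leaving out each library gave medians of -0.50 to -0.33 for DSS against water, -0.75 to -0.48 for DSS plus montmorillonite against water and -0.37 to -0.093 for DSS plus montmorillonite against DSS. Calls ranged over 0 to 5 for DSS plus montmorillonite against water and were 0 for the other comparisons. The fit of 4 libraries called 1 for DSS against water, 0 with scaling by library size only and 0 to 0 with each library left out, where the lone library is assumed to vary like the other group. DESeq2 called 13 for DSS plus montmorillonite against water. Without mitochondrially encoded genes in the total, the share was 3.86% and 3.91% in water and 2.55% in DSS plus montmorillonite replicate 1. Replicate numbers share no source in the labels, and the deviations of same-numbered libraries correlated at 0.089, 0.078 and 0.30; the fit with a replicate block called 0 genes of the family in each comparison, and 352 lower and 326 higher over all genes for DSS against water, where the fit without the block called 0.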
